A study of Sus scrofa with 4 samples.

Results

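The genes described here are 38 genes of ribosome biogenesis and the nucleolus, chosen by gene symbol for their function: proteins of small nucleolar ribonucleoprotein particles (snoRNPs), pre-ribosome assembly factors, and RNA polymerase I with its factors. All 38 symbols were found among the 29884 rows of a table of RNA sequencing read counts. All 38 also passed the filter on low counts, which left 14352 genes for testing, and their counts ran from 174 to 18192 reads per library. They lie on 16 chromosomes of the pig assembly Sscrofa11.1.

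The libraries came from ovarian granulosa cells, the somatic cells that surround the oocyte, taken from antral follicles of Sus scrofa. Part of the cells of a follicle went to flow cytometry, and the rest were grouped by how many cells were in G0/G1, the stage that precedes DNA synthesis. The table holds 2 libraries with a high G0/G1 distribution and 2 with a low G0/G1 distribution, with no other treatment or genotype in the labels. Whether the libraries within a group stem from different animals is not in the labels. The p-values therefore reflect only how these samples vary, and that variation may be technical.

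Ribosomes are built in the nucleolus. RNA polymerase I copies the ribosomal DNA into a long precursor RNA, snoRNPs modify and help to fold that RNA, and a large set of helicases, GTPases, nucleases and scaffold proteins cuts it and assembles it into the 40S and 60S subunits. Output of this pathway is coupled to cell growth, and many of its genes are targets of MYC-family transcription factors. Granulosa cells of growing follicles proliferate under follicle-stimulating hormone and leave the cell cycle when they differentiate.

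The high pair and the low pair are the 2 libraries of each group, given in the order of their replicate numbers. Library totals ran from 27442850 to 32674921 reads. Levels are in CPM, a gene's share of the reads of its library scaled by the trimmed mean of M-values (TMM), and they are not corrected for transcript length, so levels are compared between libraries and not between genes. Of the granulosa cell markers 10 of 10 had counts in every library. Their summed level was 17170 and 10820 CPM in high replicates 1 and 2 and 12820 and 11340 CPM in low replicates 1 and 2. INHA, CYP19A3 and HSD17B1 made up most of it. INHA and CYP19A3 stood higher in both high libraries than in both low ones, and CYP11A1 overlapped. FSHR, INHBA, AMH, FOXL2, NR5A1, GATA4 and HSD17B1 stood lower. FSHR had 22.5 and 26 CPM in the high pair and 81.6 and 85.9 CPM in the low pair. The groups did not overlap for 56.6% of all genes tested. The 10 fibroblast and smooth muscle markers summed to 122.3 and 159.7 CPM in the high pair, and to 56.15 CPM in low replicate 1 against 1624 CPM in low replicate 2. Of 5 theca markers CYP17A1, the enzyme of androgen synthesis, stood at 51.5 CPM in low replicate 2 and at 0.125 to 1.02 CPM in the other libraries. The summed theca list was 1030 and 309.4 CPM in the high pair, and 226.0 and 448.4 CPM in the low pair. LHCGR made up most of that sum in the high pair, at 1000 and 277 CPM, against 148 and 95.5 CPM in the low pair. INSL3 went the other way, at 17.6 and 30 CPM in the high pair and 75.3 and 260 CPM in the low pair. Markers of endothelial cells and leukocytes summed to between 3.89 and 49.1 CPM per list and library, and those of erythrocytes to between 9.254 and 27.51 CPM. The sums of endothelial, leukocyte and erythrocyte markers, like those of theca and fibroblast markers, were lowest in low replicate 1. For endothelial markers it had 6.744 CPM, against 49.1 CPM in low replicate 2 and 12.95 and 40.37 CPM in the high pair. Of 6 oocyte markers GDF9 alone had more than 1 count in a library. Of the oocyte markers 2, ZP2 and ZP4, were at 0 in every library. TEK was at 0 in low replicate 1, and CD3E in high replicate 2 and low replicate 1. Results without low replicate 2, the library with the highest fibroblast sum, are given for the 38 genes, and for each other list by its median.

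As a set, the ribosome biogenesis genes were lower in high than in low G0/G1 cells by a modest amount. The log2 fold change was negative for 34 of the 38 genes, against 50.6% of all genes tested, and the median was -0.42, against -0.01 for all genes tested. These values are descriptions, since the genes were chosen with earlier results of these data known. The differences ran from -0.97 for DKC1 and NOP16 to 0.38 for NOB1. Of the 38 genes 0 passed an adjusted p under 0.05 in edgeR's quasi-likelihood test, where the share called over all genes was 0%, and their adjusted p ran from 0.175 to 0.922. At an unadjusted p under 0.05 there were 10 lower and 0 higher, where the background was 10.8% of all genes lower and 9.92% higher. DESeq2 called 1 of the 38 lower, NOP16, and 0 higher, against 5.05% and 5.34% of all genes, while limma-voom called 0, as over all genes. The likelihood ratio test of edgeR called 0 of the 38, against 3.72% of all genes lower and 3.88% higher. In bulk libraries fewer cells that express a gene and less RNA per cell cannot be told apart.

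Both high libraries lay below both low ones for 22 of the 38 genes, against a background of 29.8%, and above them for 1, NOB1, against a background of 26.8%. For the other 15 the groups overlapped. The 38 genes together summed to 2430 and 2024 CPM in high replicates 1 and 2, against 3336 and 2690 CPM in low replicates 1 and 2. That is 0.2383% and 0.2009% of all counts in the high pair, against 0.3255% and 0.2826% in the low pair. NCL and NPM1 supplied between 29.4% and 33.1% of the counts of the set, and without them the sums were 1648 and 1429 CPM in the high pair, against 2230 and 1884 CPM in the low pair. Both sums placed every high library below every low one.

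The low libraries were not alike. Low replicate 1 had the highest level of the 4 libraries for 33 of the 38 genes (86.8%), whereas it was highest for 24.6% of all genes tested. This library also had the lowest sums of theca, fibroblast, endothelial and leukocyte markers, and the part of other cell types in its levels was not tested. It exceeded low replicate 2 in 35 of the 38, against 49.4% of all genes. The lowest level was in high replicate 2 for 22 genes, in low replicate 2 for 9, in high replicate 1 for 7 and in low replicate 1 for 0, where the shares of all genes were 34.2%, 21.9%, 18.7% and 25.2%. The counts of 9 and 7, which are 23.7% and 18.4%, were thus near the background. The median gap between the low libraries was 0.25 on the log2 scale, and that between the high libraries 0.28. The median size of the difference between groups was 0.41. Over all genes tested these medians were larger, at 0.29, 0.42 and 0.47 in the same order. For 17 of the 38 genes the gap within at least 1 group was larger than the difference between groups, which was so for 57.1% of all genes tested.

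**Figure D1:**
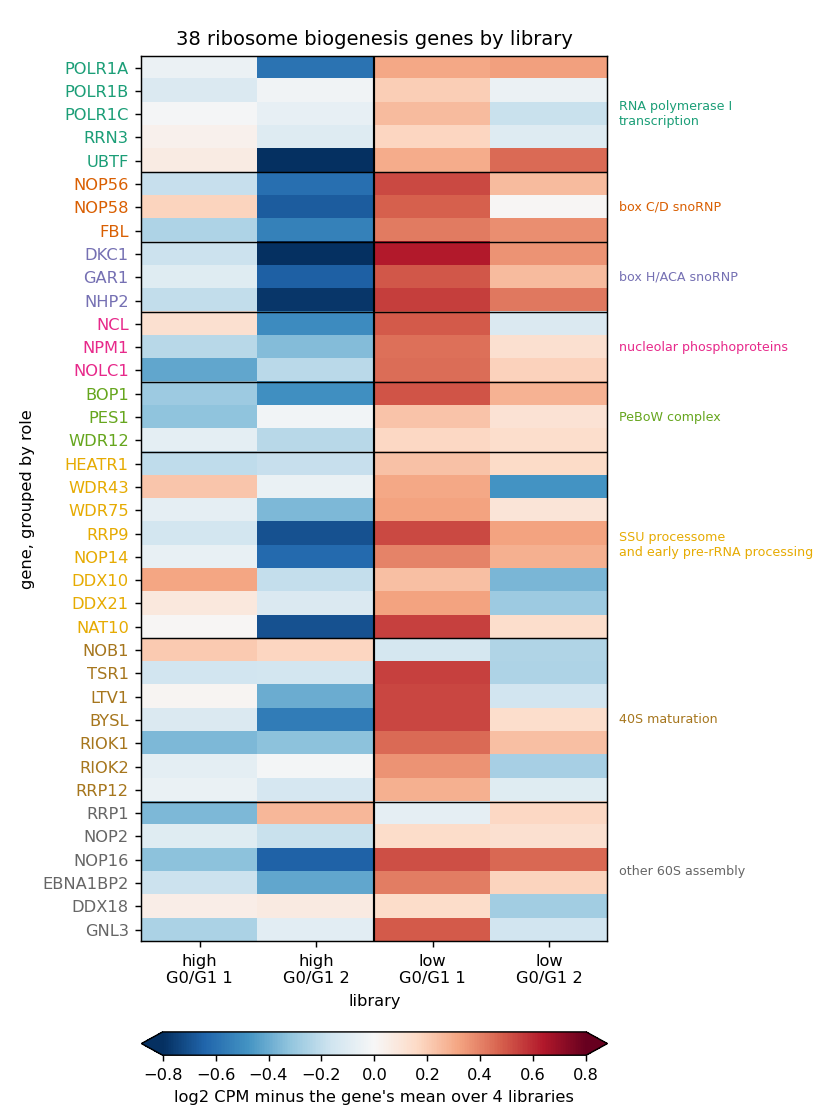
Deviation of each of the 38 genes (rows, grouped by role) from its mean over the 4 libraries (columns), as log2 CPM, where red is above and blue below the gene's mean. Low replicate 1 is the highest library in 33 of 38 rows, and high replicate 2 the lowest in 22.

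Leaving out a library moved these values. The median log2 fold change was -0.61 and -0.36 when high replicate 1 or 2 was left out, and -0.24 and -0.64 when low replicate 1 or 2 was. The counts at an unadjusted p under 0.05 were 15, 6, 0 and 3 lower in that order, with 0 higher each time. The shares of all genes lower at that level in the same fits were 15.2%, 8.6%, 4.81% and 5.36%, so that 0 and 3 of 38 without a low library lay below or near the background. Without low replicate 1 there were 14 genes with a positive log2 fold change, in place of 4. Without low replicate 2, the library with the highest fibroblast sum, 36 of the 38 genes were lower. In that fit both high libraries lay below the remaining low one for 35 of the 38, where the background was 38.2%. Of the 38 genes 24 kept 1 sign in all 4 of these fits, 23 of them lower, and the other 14 changed sign in at least 1.

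Genes of DNA synthesis and mitosis differed in the same direction and by more. Of 18 S phase genes 18 were lower, with a median log2 fold change of -2.19, and of 15 G2/M genes 15, with a median of -2.01. When high replicate 1 was left out the medians were -3.33 and -3.68, and when high replicate 2 was, -1.56 and -1.28. They were -2.29 and -2.05 without low replicate 2. The flap endonuclease gene FEN1 had -1.74 and the mitotic kinase gene PLK1 -2.48, with an edgeR adjusted p of 0.125 and 0.175. Their DESeq2 adjusted p was 3.7e-07 and 0.0023. In edgeR's quasi-likelihood test 0 genes of either list passed. DESeq2 called 18 S phase genes and 8 G2/M genes lower (100% and 53.3%, against 5.05% of all genes). Relative to the mean over the libraries the S phase genes stood at -0.34 and -1.98 in high replicates 1 and 2, against 1.26 and 1.07 in low replicates 1 and 2. The 38 ribosome biogenesis genes stood at -0.09 and -0.34 in the high pair, against 0.36 and 0.07 in the low pair. The groups were formed by G0/G1 share, and the part of the cell cycle in the lower ribosome biogenesis genes was not tested.

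RNA polymerase I, which transcribes the ribosomal DNA, was represented by 3 subunits and 2 factors, all 5 with a negative log2 fold change and a median of -0.15. UBTF, the upstream binding factor that coats active ribosomal DNA (chromosome 12, 18989833 to 19006145), had 86.5 and 47.0 CPM in the high pair and 102 and 113 CPM in the low pair. The high libraries differed widely, and the log2 fold change of -0.69 ± 0.33 (SE) ranged from -1.20 to -0.31 with 1 library left out. POLR1A, the largest catalytic subunit (chromosome 3, 58670377 to 58750441), had 61.2 and 41.9 CPM in the high pair and 78.1 and 79.0 CPM in the low pair, so that the groups did not overlap. Its log2 fold change was -0.61 ± 0.25 (edgeR adjusted p = 0.258).

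The other 3 genes of this group overlapped between groups. The share without overlap was thus 40%, against 56.6% of all genes tested. POLR1B, the second largest subunit, had 27.5 and 29.2 CPM in the high pair and 34.2 and 28.9 CPM in the low pair. POLR1C, a subunit shared with RNA polymerase III, had a log2 fold change of -0.09 with a 95% interval from -0.72 to 0.54. RRN3, which brings the polymerase to its promoter factors, had -0.07 with an interval from -0.64 to 0.49. Each of the 3 stood highest in low replicate 1, and without that library the log2 fold changes were positive, at 0.04 for POLR1B, 0.20 for POLR1C and 0.13 for RRN3.

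The box C/D snoRNP, which methylates ribosomal RNA on the ribose, was represented by 3 core proteins, all lower, with a median log2 fold change of -0.78. The groups did not overlap for 66.7% of these 3 genes, against 56.6% of all genes tested. FBL, fibrillarin, the methyltransferase (chromosome 6, 48314782 to 48326433), had 84.6 and 69.2 CPM in the high pair and 134 and 130 CPM in the low pair. Both high libraries stood well below the low ones, which were close to each other, at means of 76.9 ± 10.9 CPM in high and 132 ± 2.85 CPM in low (SD, n = 2 each), and the log2 fold change was -0.78 ± 0.21 (edgeR adjusted p = 0.176, DESeq2 adjusted p = 0.0571). NOP56, a scaffold of the particle (chromosome 17, 32960099 to 32965396), had 96.9 and 72.6 CPM in the high pair and 159 and 131 CPM in the low pair, again with no overlap, and a log2 fold change of -0.78 ± 0.24. Its partner NOP58 had 74.8 and 41.7 CPM in the high pair and 92.4 and 66.7 CPM in the low pair. Here high replicate 1 exceeded low replicate 2, and the log2 fold change of -0.45 ± 0.35 ranged from -0.94 to -0.09 with 1 library left out.

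The box H/ACA snoRNP turns uridines into pseudouridines and is also part of telomerase. It had the lowest median log2 fold change of the 8 role groups, -0.95. None of its 3 genes overlapped between groups, which was so for 56.6% of all genes tested. DKC1, dyskerin, the pseudouridine synthase (chromosome X, 125218928 to 125228881), had 44.9 and 28.5 CPM in the high pair and 78.7 and 64.9 CPM in the low pair. The group means were 36.7 ± 11.6 CPM in high and 71.8 ± 9.73 CPM in low (SD, n = 2 each), and the log2 fold change was -0.97 ± 0.29 (SE, edgeR adjusted p = 0.192, DESeq2 adjusted p = 0.0763). NHP2, an RNA-binding core protein (chromosome 2, 80223439 to 80227614), had 31.8 and 21.2 CPM in the high pair and 53.3 and 48.7 CPM in the low pair. GAR1, another core protein of the particle, had 17.5 and 11.9 CPM in the high pair and 26.3 and 22.3 CPM in the low pair. High replicate 2 was the lowest library for all 3, and with 1 library left out their log2 fold changes ranged from -1.34 to -0.67 for DKC1, from -1.28 to -0.68 for NHP2 and from -1.04 to -0.47 for GAR1.

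Of the abundant nucleolar phosphoproteins, NPM1 and NOLC1 separated the groups and NCL did not, where 56.6% of all genes tested had no overlap. NPM1, nucleophosmin, a histone chaperone that also carries pre-ribosomes (chromosome 16, 52767263 to 52781862), had 337 and 309 CPM in the high pair and 535 and 430 CPM in the low pair. The log2 fold change was -0.58 ± 0.23 (edgeR adjusted p = 0.241). NOLC1, also known as Nopp140, which accompanies snoRNPs, had 77.2 and 88.5 CPM in the high pair and 140 and 117 CPM in the low pair, with a log2 fold change of -0.63 ± 0.21. NCL, nucleolin, an RNA-binding protein of early pre-ribosomal RNA (chromosome 15, 132163453 to 132174214), had 445 and 286 CPM in the high pair and 571 and 375 CPM in the low pair. High replicate 1 stood above low replicate 2, and without low replicate 1 the log2 fold change was 0.02 in place of -0.37 ± 0.34.

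The PeBoW complex, named for PES1, BOP1 and WDR12, is needed to process the precursor of the 60S subunit's RNA. Its 3 genes each had both high libraries below both low ones, as did 29.8% of all genes tested. BOP1 (chromosome 4, 486562 to 507141) had 42.7 and 37.3 CPM in the high pair and 74.0 and 63.4 CPM in the low pair, with a log2 fold change of -0.78 ± 0.21 (edgeR adjusted p = 0.176, DESeq2 adjusted p = 0.0732). The differences of its partners were smaller. PES1 had 73.5 and 90.8 CPM in the high pair and 108 and 99.5 CPM in the low pair, and WDR12 had 23.6 and 21.4 CPM in the high pair and 28.0 and 27.5 CPM in the low pair. Their log2 fold changes were -0.34 ± 0.21 and -0.30 ± 0.22, and the 95% interval of each included 0.

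**Figure D2:**
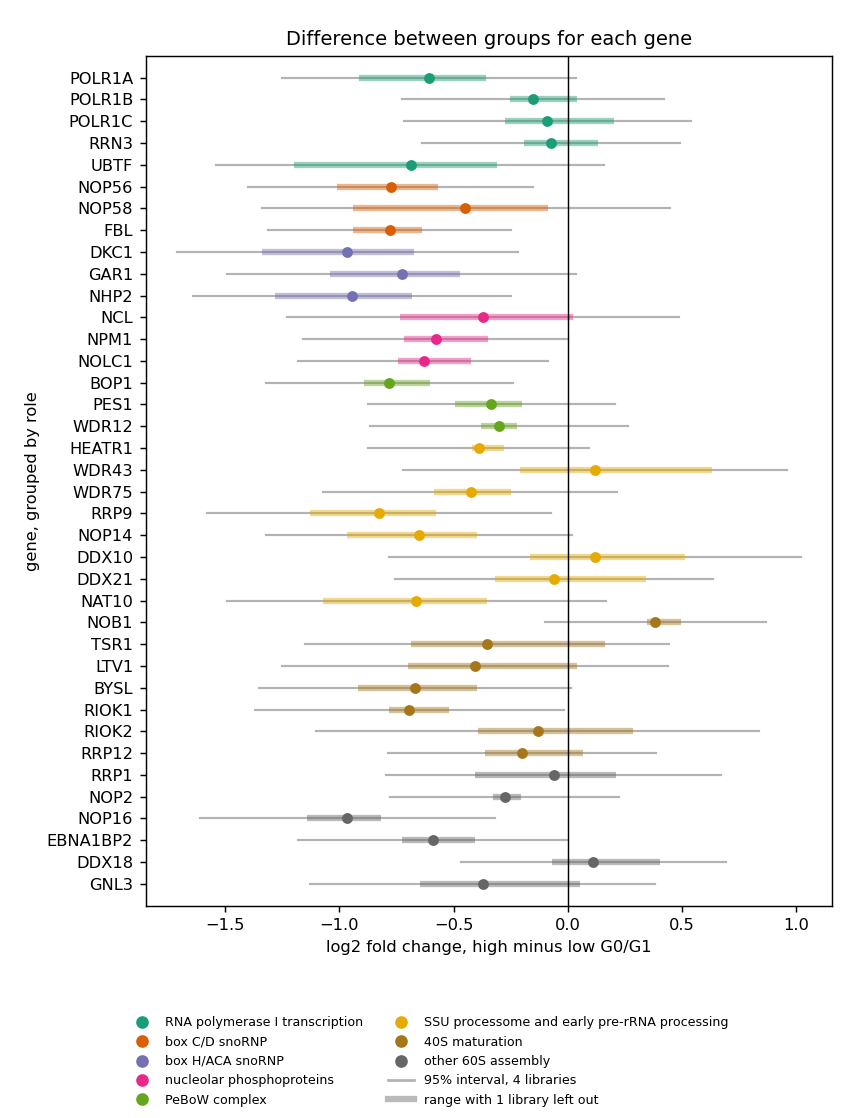
Log2 fold change of each gene, high minus low G0/G1 (points, coloured by role), with its 95% interval from edgeR's quasi-likelihood fit (grey lines) and the range when 1 library is left out (thick bars). Of the 38 points 34 lie below 0, and the interval includes 0 for 28.

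The small subunit (SSU) processome and the factors of early pre-ribosomal RNA processing were mixed, with 6 of 8 genes lower and a median log2 fold change of -0.41. High and low libraries did not overlap for 62.5% of these genes, near the 56.6% of all genes tested. RRP9, a protein of the U3 snoRNP that guides early cuts (chromosome 13, 34067517 to 34075425), had 16.6 and 11.4 CPM in the high pair and 26.6 and 23.0 CPM in the low pair. The groups did not overlap, and the log2 fold change was -0.83 ± 0.30 (edgeR adjusted p = 0.218). NAT10, the acetyltransferase of 18S ribosomal RNA, had 32.0 and 19.6 CPM in the high pair and 46.6 and 35.1 CPM in the low pair, and NOP14, an assembly factor, had 44.1 and 29.9 CPM in the high pair and 60.5 and 56.0 CPM in the low pair. Both had the high libraries below the low ones, with log2 fold changes of -0.66 ± 0.33 and -0.65 ± 0.26.

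Of the proteins that bind first to the nascent transcript, HEATR1 and WDR75 did not overlap between groups, while WDR43 did. HEATR1 had 57.2 and 58.1 CPM in the high pair and 77.8 and 73.3 CPM in the low pair, with little spread within either group, and WDR75 had 20.0 and 16.3 CPM in the high pair and 26.2 and 22.5 CPM in the low pair. WDR43 had 36.3 and 30.0 CPM in the high pair and 38.6 and 22.4 CPM in the low pair, so both high libraries lay between the low ones. The RNA helicase gene DDX21 had 116 and 101.3 CPM in the high pair and 137 and 89.9 CPM in the low pair, the same arrangement. DDX10, another helicase, had 17.3 and 12.1 CPM in the high pair and 16.3 and 10.8 CPM in the low pair. The log2 fold changes of WDR43, DDX21 and DDX10 were 0.12 ± 0.33, -0.06 ± 0.27 and 0.12 ± 0.36, and each changed sign with a library left out.

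Among the factors that mature the 40S subunit 6 of 7 were lower, with a median log2 fold change of -0.36, and NOB1 went the other way. No overlap between groups was seen for 42.9% of these 7 genes, against 56.6% of all genes tested. NOB1, the endonuclease that makes the last cut of 18S ribosomal RNA (chromosome 6, 17233863 to 17245451), had 112 and 109 CPM in the high pair and 87.3 and 81.6 CPM in the low pair. Its group means were 110 ± 2.18 CPM in high and 84.5 ± 4.03 CPM in low (SD, n = 2 each), and the log2 fold change of 0.38 ± 0.19 missed the threshold (SE, edgeR adjusted p = 0.313, DESeq2 adjusted p = 0.342). With 1 library left out it ranged from 0.35 to 0.50. BYSL, bystin, which binds the pre-40S particle, had 42.2 and 31.0 CPM in the high pair and 66.2 and 50.3 CPM in the low pair, with a log2 fold change of -0.67 ± 0.27.

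The atypical kinases of 40S maturation differed in their values. RIOK1 had 10.8 and 11.02 CPM in the high pair and 18.98 and 16.4 CPM in the low pair, with no overlap and a log2 fold change of -0.70 ± 0.27 (edgeR adjusted p = 0.233). RIOK2 had 6.88 and 7.16 CPM in the high pair and 9.32 and 6.03 CPM in the low pair, with a log2 fold change of -0.13 ± 0.38. The third kinase of the family, RIOK3, which is on the wider list below, had 88.1 and 122 CPM in the high pair and 65.4 and 54.7 CPM in the low pair, with a log2 fold change of 0.81 ± 0.25 (edgeR adjusted p = 0.195). The differences were thus negative for RIOK1 and positive for RIOK3, and the difference between these genes was not tested.

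TSR1, a GTPase-like factor, LTV1, a protein removed late from the particle, and RRP12, a repeat protein of pre-40S export, overlapped between groups. TSR1 had 40.6 and 40.8 CPM in the high pair and 66.2 and 38.01 CPM in the low pair. LTV1 had 22.5 and 16.9 CPM in the high pair and 32.2 and 20.0 CPM in the low pair, and RRP12 had 39.1 and 37.0 CPM in the high pair and 49.4 and 38.04 CPM in the low pair. In all 3 low replicate 1 was well above the other libraries, and their log2 fold changes of -0.36 ± 0.31, -0.41 ± 0.33 and -0.20 ± 0.23 turned positive without it, at 0.16, 0.04 and 0.07.

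In the remaining group, the other factors of 60S assembly, 5 of 6 genes were lower, with a median log2 fold change of -0.32. Of these 6 genes 50% had no overlap between groups, against 56.6% of all genes tested. NOP16, a nucleolar protein of the pre-60S particle (chromosome 2, 81488191 to 81498623), had 14.6 and 11.8 CPM in the high pair and 26.3 and 25.2 CPM in the low pair. Its group means were 13.2 ± 2.03 CPM in high and 25.8 ± 0.758 CPM in low (SD, n = 2 each). The log2 fold change was -0.97 ± 0.25 (SE), which missed the threshold in edgeR (adjusted p = 0.175) and passed it in DESeq2 (adjusted p = 0.0407). EBNA1BP2, a pre-60S factor, had 29.7 and 25.1 CPM in the high pair and 44.6 and 37.9 CPM in the low pair, with no overlap and a log2 fold change of -0.59 ± 0.23.

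The rest of this group differed little or varied within a group. NOP2, the methyltransferase of 28S ribosomal RNA, had 42.4 and 39.99 CPM in the high pair and 50.2 and 49.6 CPM in the low pair, a small difference with tight groups (log2 fold change -0.28 ± 0.20). GNL3, nucleostemin, a nucleolar GTP-binding protein, had 23.3 and 26.2 CPM in the high pair and 39.1 and 25.0 CPM in the low pair, where low replicate 1 stood apart. The helicase gene DDX18 had 81.9 and 82.8 CPM in the high pair and 87.4 and 65.1 CPM in the low pair, so the high values lay between the low ones. RRP1 was the 1 gene of the 38 with its highest value in high replicate 2, at 29.5 and 45.6 CPM in the high pair and 35.9 and 42.5 CPM in the low pair. The log2 fold changes of GNL3, DDX18 and RRP1 were -0.37 ± 0.30, 0.11 ± 0.23 and -0.06 ± 0.29, and each changed sign with a library left out.

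**Figure D3:**
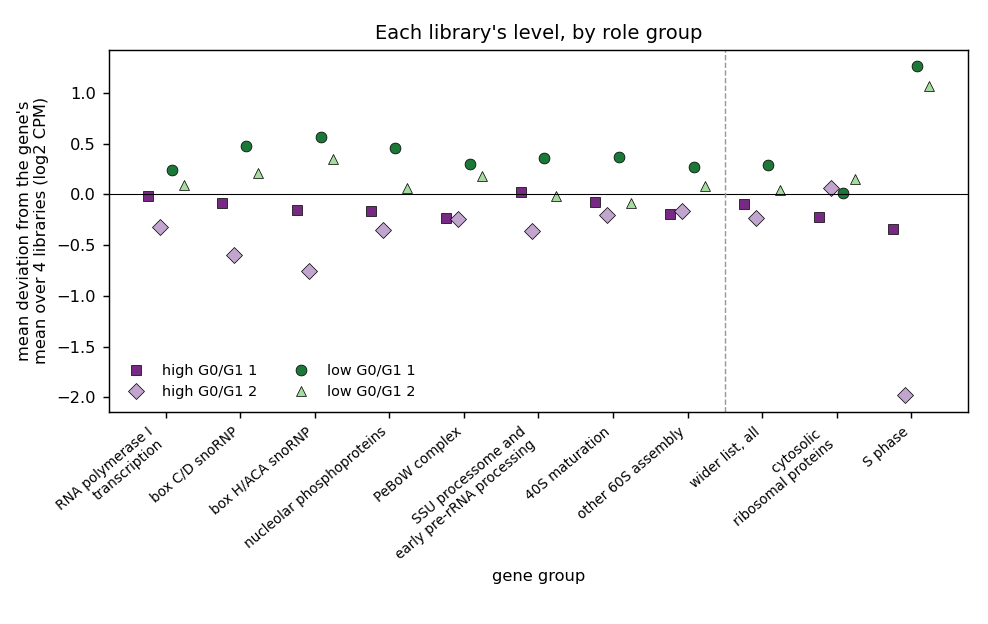
Mean deviation of each library from the gene's mean over the 4 libraries (y axis, log2 CPM) for the 8 role groups and, right of the dashed line, for the wider list, the cytosolic ribosomal proteins and the S phase genes. Low replicate 1 is the highest library in each of the 8 role groups, and in the S phase genes high replicate 2 is at -1.98.

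The counts of 14 of the 38 genes could include reads of a gene whose span overlaps theirs in the RefSeq annotation of Sscrofa11.1, since the strand setting is not given in the sources used here. For 6 the overlap covers over 10% of the gene's span. NHP2 shares 37.5% of its span with RMND5B, LTV1 29.4% with ZC2HC1B, TSR1 27.1% with SRR, NOP16 17.3% with ARL10, BOP1 11.6% with SCX and GNL3 10.6% with PBRM1. Over all libraries NOP16 had 2338 counts against 8556 for ARL10, GNL3 3404 against 16004 for PBRM1, and NHP2 4652 against 3828 for RMND5B. TSR1 had 5579 counts against 1644 for SRR, LTV1 2760 against 23 for ZC2HC1B and BOP1 6523 against 44 for SCX. The log2 fold changes were -0.95 for NHP2 and -0.97 for NOP16, against -0.21 for RMND5B and -0.19 for ARL10. GNL3 had -0.37 against -0.03 for PBRM1, whereas TSR1 had -0.36 against -0.96 for SRR. Among smaller overlaps, POLR1C had -0.09 against -1.26 for XPO5, and POLR1A -0.61 against -0.55 for PTCD3. WDR12 had -0.30 against 0.92 for CARF. How many reads of a pair were shared was not tested.

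Other genes of ribosome biogenesis leaned the same way with a smaller median. On a wider list of the pathway 103 of 137 tested genes were lower (75.2%, against 50.6% of all genes), with a median log2 fold change of -0.27. In edgeR's quasi-likelihood test 0 passed. At an unadjusted p under 0.05, 29 were lower (21.2%) and 2 higher, against 10.8% and 9.92% of all genes. With DESeq2 the calls were 8 lower (5.84%, against 5.05% of all genes) and 0 higher. Leaving out low replicate 1 gave a median of -0.12, and leaving out low replicate 2 one of -0.43. By role, 34 of 44 genes of 60S assembly, 31 of 39 of the SSU processome, 13 of 16 of the exosome and exonucleases, 9 of 12 of snoRNP assembly, 7 of 11 of RNA polymerase I and 9 of 15 of late 40S maturation and 60S export were lower. Their medians were -0.29, -0.28, -0.61, -0.41, -0.11 and -0.06. Without low replicate 1 these medians were -0.01, -0.15, -0.47, -0.20, -0.004 and 0.12, and without low replicate 2 they were -0.45, -0.34, -0.70, -0.57, -0.11 and -0.09. With high replicate 2 left out that of the exosome was -0.40, that of snoRNP assembly -0.26 and that of RNA polymerase I -0.19, and with high replicate 1 left out the RNA polymerase I median was -0.07.

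Named by their small unadjusted p, the genes of the wider list included several with larger differences than those of the 38. LYAR, a nucleolar zinc finger protein, had 11.2 and 6.003 CPM in the high pair and 37.4 and 24.6 CPM in the low pair, with a log2 fold change of -1.85 ± 0.42 (edgeR adjusted p = 0.166, DESeq2 adjusted p = 0.00342). EXOSC5, a core subunit of the RNA exosome that trims pre-ribosomal RNA, had 8.39 and 11.4 CPM in the high pair and 32.4 and 22.0 CPM in the low pair, with -1.45 ± 0.33. RUVBL1, an ATPase that helps to assemble snoRNPs and other complexes, had 76.8 and 48.1 CPM in the high pair and 169 and 136 CPM in the low pair, with -1.29 ± 0.30. All 3 had both high libraries below both low ones, as did 29.8% of all genes tested. Choosing genes by small p favours such separation. UTP18 of the SSU processome had -1.05 ± 0.28, RRP1B, the paralog of RRP1, -1.15 ± 0.29, and TCOF1, the treacle protein that works with UBTF, -0.71 ± 0.21, each with an edgeR adjusted p between 0.170 and 0.188.

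The proteins that these factors assemble into subunits, those of the cytosolic ribosome, leaned less far, and by an amount that depended on the libraries. Of 78 tested 59 were lower, with a median log2 fold change of -0.16 and a range from -0.64 to 0.21. RPL36A at -0.55 ± 0.20 was the 1 gene with an unadjusted p under 0.05 (1.28%, against 20.7% of all genes). Leaving out high replicate 1 gave a median of -0.02, and leaving out high replicate 2 one of -0.31, where that of the 38 genes was -0.36. With low replicate 1 or 2 left out it was -0.18 or -0.08. By edgeR's quasi-likelihood test 0 passed the threshold, and DESeq2 called 0. Their summed level was 46480 and 56810 CPM in high replicates 1 and 2, and 53770 and 61520 CPM in low replicates 1 and 2, so the groups overlapped. Their lowest library was high replicate 1, at -0.22 from the mean, and their highest low replicate 2, at 0.15, where the 38 genes had high replicate 2 lowest and low replicate 1 highest. In 20 genes of RNA polymerase III, which makes the 5S ribosomal RNA and transfer RNAs, 10 were lower and 10 higher, with a median of -0.05. That median became -0.15 when high replicate 1 was left out, and 0.05 or -0.02 when low replicate 1 or 2 was. By edgeR 0 of these passed, and DESeq2 called 0. At an unadjusted p under 0.05, 1 was lower and 1 higher, against 10.8% and 9.92% of all genes. MAF1, the repressor of that polymerase, had 143 and 176 CPM in the high pair and 97.1 and 105 CPM in the low pair, a log2 fold change of 0.66 ± 0.21 (edgeR adjusted p = 0.201).

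**Figure D4:**
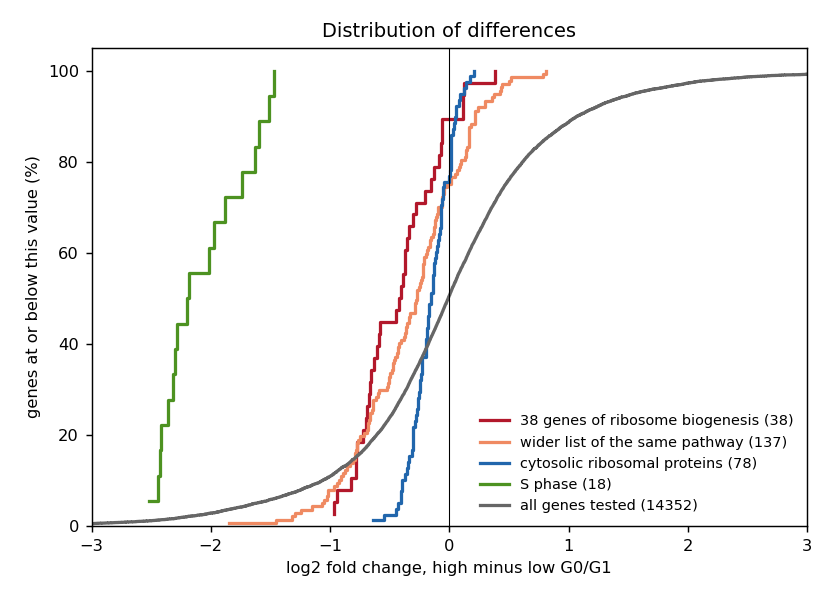
Cumulative share of genes (y axis, percent) at or below each log2 fold change, high minus low G0/G1 (x axis, shown from -3 to 3), for the 38 genes, the wider list, the cytosolic ribosomal proteins, the S phase genes and all genes tested, with the number of genes in brackets. The 38 genes have a median of -0.42, the wider list -0.27, the ribosomal proteins -0.16 and the S phase genes -2.19, against -0.01 for all genes.

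Translation factors were lower in 21 of 29 genes, with a median log2 fold change of -0.17. Leaving out high replicate 1 made it -0.11, and leaving out low replicate 1 or 2 made it -0.05 or -0.32. By edgeR 0 passed the threshold. At an unadjusted p under 0.05, 5 were lower (17.2%) and 0 higher, against 10.8% and 9.92% of all genes. With DESeq2 the calls were 2 lower (6.9%, against 5.05% of all genes). EIF4A1, the RNA helicase of cap-dependent initiation, had 323 and 256 CPM in the high pair and 677 and 545 CPM in the low pair, a log2 fold change of -1.08 ± 0.25. EIF3B, a subunit of initiation factor eIF3, had 118 and 100.7 CPM in the high pair and 258 and 197 CPM in the low pair, with -1.05 ± 0.24. For both the high libraries lay below the low ones, which choosing by small p favours, and which was so for 29.8% of all genes tested.

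Among 15 regulators upstream of ribosome biogenesis, which pool MYCN with MYC antagonists such as MNT, 10 were higher and 5 lower. Their median log2 fold change, taken over genes of opposing function, was 0.18. Leaving out high replicate 2 made it 0.08, and leaving out low replicate 1 or 2 made it 0.39 or 0.16. By edgeR 0 passed, and 3 were higher and 2 lower at an unadjusted p under 0.05, against 9.92% and 10.8% of all genes. DESeq2 called 2 higher (13.3%) and 1 lower (6.67%), against 5.34% and 5.05% of all genes. MNT, a repressor that competes with MYC for the partner MAX, had 33.5 and 37.1 CPM in the high pair and 11.3 and 8.08 CPM in the low pair, and a log2 fold change of 1.87 ± 0.28 (edgeR adjusted p = 0.127, DESeq2 adjusted p = 1.4e-05). MYCN had 1.91 and 1.93 CPM in the high pair and 10.4 and 8.15 CPM in the low pair, with -2.27 ± 0.40 (edgeR adjusted p = 0.142, DESeq2 adjusted p = 7.7e-05). MXI1, another MYC antagonist, had 34.7 and 74.4 CPM in the high pair and 17.5 and 15.5 CPM in the low pair. In all 3 the groups stood apart, as in 56.6% of all genes tested, though each missed edgeR's threshold. They were named by smallest unadjusted p, which favours such separation. MYC, named after its values were seen, had 39.7 and 271 CPM in the high pair and 97.6 and 33.95 CPM in the low pair, so that the low values overlapped the high ones and the spread within groups exceeded the difference (log2 fold change 1.24 ± 0.96).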

How the data were processed

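The authors deposited raw read counts, whole numbers for each gene symbol and library, in a single table. The aligner was HISAT2 and the build Sscrofa11.1, as given by the submitters' processing notes. How reads were counted, with which annotation, strand setting and filters, was not given in the sources used. Columns were matched to samples by title, and 29862 of 29884 symbols to RefSeq, which gave coordinates. Replicate numbers follow listing order and pair nothing.

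The contrast of high against low G0/G1 was fitted to the 4 libraries in edgeR 4.0.16 under R 4.3.3, using filterByExpr (minimum count 10, minimum total 15), TMM scaling, glmQLFit and glmQLFTest, with Benjamini-Hochberg adjustment over 14352 genes and a threshold of 0.05. The common biological coefficient of variation was 0.371. Log2 fold changes are high minus low. The standard error is the log2 fold change over the root of F. Log2 CPM values use a prior count of 2. Alternatives were DESeq2 1.42.0, limma-voom (limma 3.58.1), edgeR's likelihood ratio test, other scalings, no filter and leaving out each library.

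The 38 genes and the other lists were chosen with earlier results of these data known. Counts and medians of a list are descriptions, with no test of the list. One companion list is not reported here. All 38 are named, with at least 1 gene per role in full, and from each other list up to 3 by smallest unadjusted p, where the average log2 CPM was at least 1.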

Additional observations from a re-analysis of the deposited data

How the results depend on the processing

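The median log2 fold change of the 38 genes was negative under each alternative, from -0.64 to -0.24 with 1 library left out, and between -0.43 and -0.39 under the other scalings, tools and filter. The count of these genes with a negative log2 fold change was 34 in all the alternatives that keep the 4 libraries. With 1 library left out, the count with a positive one ran from 2 to 14, the count lower at an unadjusted p under 0.05 from 0 to 15, the count with the high libraries above the low from 1 to 9, and the count with the high below the low from 22 to 35. In those fits 35.6% to 40.1% of all genes had the high libraries above the low and 38.2% to 42.4% below. The last 3 counts were recomputed by a choice made after seeing the data. DESeq2 called 1 of the 38 lower, and each other alternative 0.

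Over all genes tested, edgeR's quasi-likelihood test called 0 in either direction. The counts were 767 higher and 725 lower with DESeq2, 557 and 534 with the likelihood ratio test, 2 and 3 with no filter on low counts, and from 0 to 363 and from 0 to 591 with 1 library left out, the highest of each without high replicate 1. The median over all genes moved by under 0.1 with each scaling.

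The sign of 14 of the 38 genes turned when a library was left out, and the cause was not tested. Their lowest and highest log2 fold changes were -0.25 and 0.038 for POLR1B, -0.27 and 0.20 for POLR1C, -0.19 and 0.13 for RRN3, -0.73 and 0.022 for NCL, -0.21 and 0.63 for WDR43, -0.17 and 0.51 for DDX10, -0.32 and 0.34 for DDX21, -0.69 and 0.16 for TSR1, -0.70 and 0.039 for LTV1, -0.39 and 0.28 for RIOK2, -0.36 and 0.065 for RRP12, -0.41 and 0.21 for RRP1, -0.071 and 0.40 for DDX18, and -0.65 and 0.051 for GNL3. No paired analysis was possible because the labels give the libraries no shared replicate numbers. With 2 libraries a group, precision is limited by the spread between libraries and not by counting error, as each gene of the set had at least 174 counts in a library.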
